A study of Mus musculus with 12 samples.

Results

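The genes described here are 34 type I interferon-stimulated genes, taken by symbol from a fixed list of members out of the 22294 genes in the table. All 34 were found, and all 34 were expressed highly enough to be tested. Messenger RNA was sequenced from F4/80+ cells, the macrophage fraction, which had been pulled with magnetic beads from digested mouse endometrium. The 12 libraries formed 4 groups of 3. In the Sham group the mice were sham-operated. The IUA group had experimental intrauterine adhesion, a condition of scarring within the uterine cavity. The remaining 2 groups were IUA mice treated with mesenchymal stromal cells from human umbilical cord, given either as control cells (control MSC) or after priming with inflammatory cytokines (primed MSC). The IUA libraries alone carry the name Matrigel, and the labels used here do not say whether the treated mice received it. The strain and age of the mice are not given in the sources used here. Nothing in the labels says that the 3 libraries of a group came from separate mice, so p-values reflect only how much these libraries varied, which may be technical.

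Type I interferons are secreted proteins that warn cells of viral nucleic acid or tissue damage. They bind the receptor formed by Ifnar1 and Ifnar2, whose kinases activate a complex of transcription factors that includes STAT2 and IRF9. This complex enters the nucleus, binds a DNA element called the interferon-stimulated response element (ISRE) and switches on a shared set of antiviral genes. Macrophages both make and respond to these interferons, and the basal level of the set is used as a readout of interferon tone in a tissue.

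The promoter sequences show the element that gives the set its name, so they stand before the levels. Of the 34 genes, 24 had an entry in the RefSeq promoter table (mouse build GRCm38, equal to mm10), which holds 250 bases before and 50 bases after each start of transcription. An ISRE core was searched as GAAA, 2 bases of any kind and GAAA again, on both strands, so that TTTC, 2 bases and TTTC is the same core read from the other strand. It occurred in the promoters of 14 of the 24 genes (58.3 percent), against 3.99 percent of all 27025 genes in that table. A palindromic element, searched as TTCNNNGAA, occurred in 7 of the 24 (29.2 percent) against 9.55 percent of all genes, and a TATA box, searched as TATAAA on both strands, in 3 (12.5 percent) against 15.7 percent. The first 2 motifs can share bases where a core's GAA ends the palindrome. A match is a run of letters in the window and not a measured binding site.

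The stretches below come from genes whose levels are described later, each 60 bases long, read 5′ to 3′ in the direction of transcription, with the ISRE cores in capitals. Ifit1 (chr19:34640779-34640838, plus strand) carried a pair of cores on the opposite strand between 110 and 51 bases before its start. Ifit3 (chr19:34583382-34583441, plus strand) and its neighbour Ifit3b (chr19:34607778-34607837, plus strand) held the same 60 bases letter for letter, so that sequence is printed once. Isg15 (chr4:156200850-156200909, minus strand) had 3 overlapping cores. Oas1a (chr5:120907526-120907585) and Oas3 (chr5:120777700-120777759), both on the minus strand, lie in one gene cluster, and Rsad2 (chr12:26456538-26456597, minus strand) had a single core on the opposite strand.
Ifit1: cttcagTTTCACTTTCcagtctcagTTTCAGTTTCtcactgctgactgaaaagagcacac
Ifit3 and Ifit3b: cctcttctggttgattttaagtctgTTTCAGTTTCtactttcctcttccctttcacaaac
Isg15: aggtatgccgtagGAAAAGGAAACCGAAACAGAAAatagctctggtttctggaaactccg
Oas1a: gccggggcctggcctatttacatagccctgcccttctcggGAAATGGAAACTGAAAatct
Oas3: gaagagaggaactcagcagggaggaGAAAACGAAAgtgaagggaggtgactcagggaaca
Rsad2: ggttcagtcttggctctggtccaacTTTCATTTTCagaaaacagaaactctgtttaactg
Genes with such a core did not share one pattern of levels. Ifit1, Ifit3 and Ifit3b fell in IUA against Sham, Oas1a rose, and Isg15, Oas3 and Rsad2 did not pass in that comparison. Of the genes with a promoter entry, 7 of the 13 that fell, the 1 that rose and 6 of the 10 that did not pass held a core.

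Levels are given as FPKM from the authors' table, that is, fragments divided by transcript length and by the mapped fragments of the library. FPKM corrects for transcript length, so levels of different genes can be set side by side. Changes are differences of log2(FPKM + 1), which understate the change of genes near 1 FPKM, and are given with the standard error (SE) from limma. A gene is said to rise, fall or pass where limma's Benjamini-Hochberg adjusted p over all 11604 tested genes was under 0.05. Estimated from the steps between low values, the libraries held about 15000000 to 23600000 fragments. The lowest estimate behind any value of the 34 genes was 31 fragments, for Mx2, followed by 55 for Mx1, 64 for Ifit3b, 71 for Oas3 and 132 for Stat2. Some transcripts share 31-base words with other genes, which makes their counts uncertain. The share was 20.5 percent of the words of Ifitm3, 24.95 percent of Herc6 (all with the overlapping Gm45193) and 14.5 percent of Rtp4 (with Gm45338). For Isg15 it was 12.8 percent, for Mx2 11.8 percent (with Mx1), for Trim30a 11.8 percent, for Sp100 11.5 percent and for Ifit1 10.5 percent.

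The libraries also differed in markers of the sorted cells and of other cell types. The macrophage markers summed to 12066 to 14695 FPKM in Sham and to 31752 to 37020 FPKM in the other groups, with all 11 of 11 markers detected. Uterine epithelial markers, all 19 of 19 detected, summed to 8355 to 14484 FPKM in Sham, 1752 to 5643 in IUA, 1661 to 4164 in control MSC and 1682 to 2637 in primed MSC. Endothelial markers, all 12 of 12 detected, summed to 294 to 527 FPKM in Sham, 146 to 192 in IUA, 122 to 199 in control MSC and 119 to 146 in primed MSC, and 11 of 12 fell in IUA. Neutrophil markers, also 12 of 12 detected, went the other way: they summed to 61.8 to 105 FPKM in Sham, 357 to 486 in IUA, 733 to 1186 in control MSC and 383 to 1511 in primed MSC, and 7 of 10 tested rose in IUA. Of the 11 macrophage markers 10 rose in IUA, and of 17 tested epithelial markers 16 fell and 1 rose. Among all tested genes 11.1 percent rose and 45 percent fell in IUA against Sham. In such bulk samples, fewer cells of a type and less RNA per cell cannot be told apart. The median of all tested genes was 0.35 lower in IUA than in Sham on the log2 scale, and median-ratio scaling, which divides each library by 1 factor so that the typical gene is level, took that median to -0.03. Markers of plasmacytoid dendritic cells, a strong source of type I interferon, were all 7 of 7 detected and summed to 63.2 to 92.8 FPKM in Sham, 55.7 to 71.2 in IUA, 51.2 to 65.3 in control MSC and 57.9 to 68.9 in primed MSC. Of the 4 tested, 1 fell in IUA and 3 did not pass, with a median change of 0.18. The 1 that fell was Siglech, at 4.86 to 5.68 FPKM in Sham and 0.38 to 1.44 in the other libraries. The part of the other cell types in the results was not tested.

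Most of the 34 genes had their highest mean level in Sham. Sham was the highest group for 22 genes, primed MSC for 7, IUA for 4 and control MSC for 1, and the lowest group was primed MSC for 13, control MSC for 11, Sham for 7 and IUA for 3. By limma's F test 22 of the 34 (64.7 percent) differed among the 4 groups, beside 67 percent of all tested genes, so the set changed about as often as the rest.

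**Figure D1:**
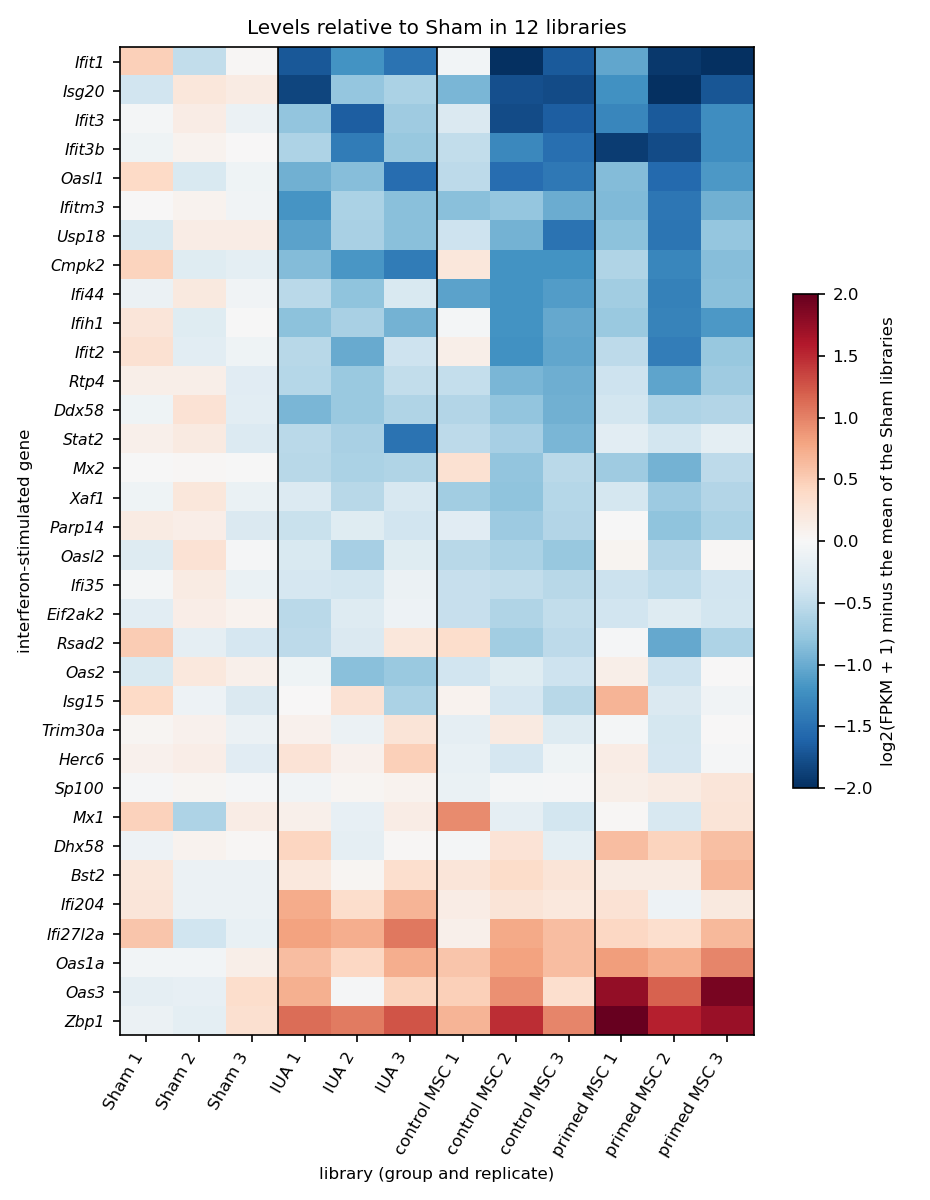
Difference of each gene's log2(FPKM + 1) from the mean of the 3 Sham libraries, for 34 interferon-stimulated genes (rows, ordered by the mean over the other 9 libraries) in 12 libraries (columns). Blue is lower and red is higher than Sham; colours are capped at 2. Ifit1, Isg20 and Oasl1 are blue outside Sham, Zbp1 and Oas3 red, and the first control MSC library is paler than the others of its group.

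IUA was set against Sham to see what adhesion did to this response in the sorted cells. The set split: 3 of 4 IFIT genes, Oasl1, Isg20, Cmpk2, Usp18 and Ifitm3 fell, while Zbp1, Ifi27l2a, Ifi204 and Oas1a rose. Of the 34 genes, 17 fell (50 percent), beside 45 percent of all tested genes, and 4 rose (11.8 percent), beside 11.1 percent. The median change of the 34 was -0.39 and that of all tested genes -0.35. Neither share stood far from that of the transcriptome. In 16 of the 34 every IUA library lay below every Sham library, beside 47.7 percent of all tested genes, and in 4 every one lay above, beside 11.9 percent. Under median-ratio scaling 8 of the 34 rose and 3 fell: Ddx58, Oasl1 and Ifitm3 were the 3 that still fell, and Herc6, Bst2, Sp100 and Trim30a joined the 4 that rose. Under that scaling 21.8 percent of all tested genes rose and 23.4 percent fell. The falls described below are on the deposited scale, and of the 17 genes that fell, 14 did not pass as lower after scaling. With GC correction and scaling together, chosen after seeing the data, the 2 that fell were Ddx58 and Ifit1, and Oasl1 and Ifitm3 did not pass. In that fit 21.4 percent of all tested genes fell.

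**Figure D2:**
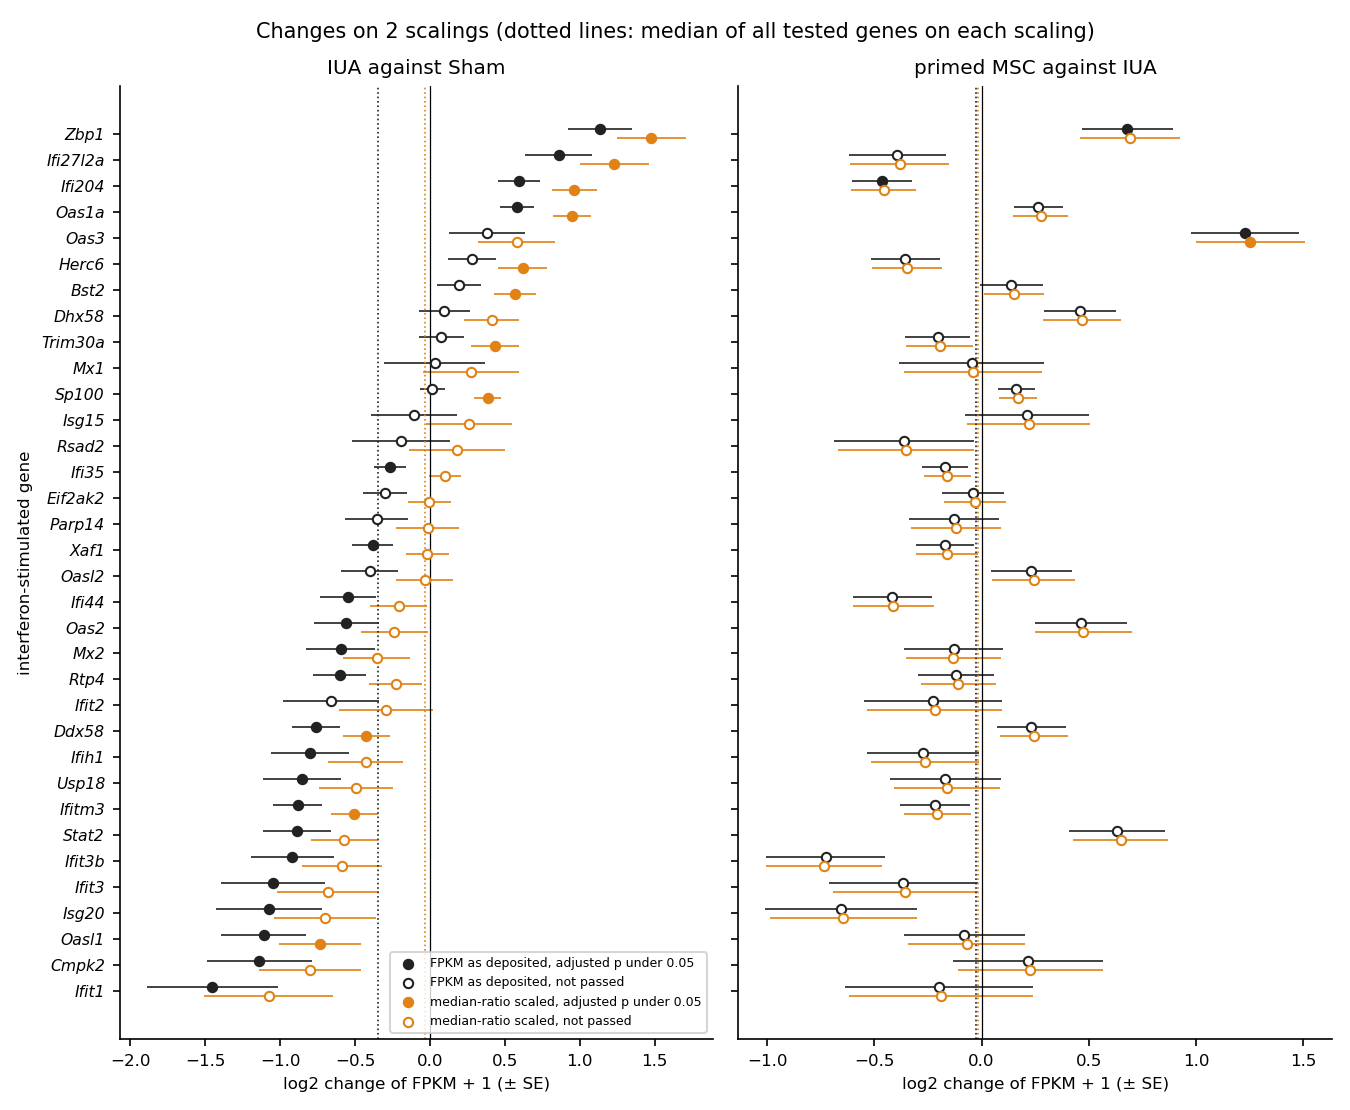
Log2 change of FPKM + 1 (points, with SE as bars) of the 34 genes in IUA against Sham (left) and primed MSC against IUA (right), on the deposited FPKM (black) and after median-ratio scaling (orange); filled points passed at an adjusted p under 0.05 and dotted lines mark the median of all tested genes. In IUA against Sham the orange points lie to the right of the black ones, while in primed MSC against IUA the 2 sets nearly coincide and Oas3 passes in both.

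The 4 IFIT genes encode proteins that bind foreign RNA, and they lie side by side on chromosome 19. Ifit1 (chromosome 19, 34640871 to 34650009) was at 220.0, 112 and 161.5 FPKM in Sham, 48.4, 69.0 and 56.4 in IUA, 153, 38.0 and 49.0 in control MSC, and 77.0, 40.8 and 39.2 in primed MSC. The Sham libraries lay above all IUA and primed MSC libraries, and the first control MSC library lay among them. Ifit1 fell in IUA by 1.45 ± 0.44 (limma adjusted p = 0.0144), and the call was lost without Sham replicate 1 (adjusted p = 0.0567). Ifit3 stood at 44.3, 50.6 and 41.6 FPKM in Sham, 25.9, 13.8 and 27.2 in IUA, 36.9, 12.4 and 13.8 in control MSC, and 17.8, 13.4 and 18.5 in primed MSC. Every Sham library was above every other library. Its fall in IUA was 1.05 ± 0.35 (limma adjusted p = 0.0217), lost without Sham replicate 2 or IUA replicate 2. Ifit3b had 8.15, 9.25 and 8.78 FPKM in Sham, 5.36, 2.70 and 4.77 in IUA, 5.93, 2.98 and 2.42 in control MSC, and 1.60, 1.80 and 3.12 in primed MSC, again with Sham on top. It fell in IUA by 0.92 ± 0.28 (limma adjusted p = 0.0140), lost without IUA replicate 2. Ifit3 and Ifit3b are near-copies: 61.8 percent of the 31-base words in the Ifit3 transcript also occur in Ifit3b, so reads may have been split between them and their separate values are uncertain. Ifit2 ran from 29.5 to 42.5 FPKM in Sham and 16.6 to 25.4 in IUA, without overlap, but did not pass (-0.66 ± 0.32, limma adjusted p = 0.0982). None of the 4 passed in IUA against Sham after median-ratio scaling, where Ifit1 was at -1.08 (limma adjusted p = 0.0582).

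**Figure D3:**
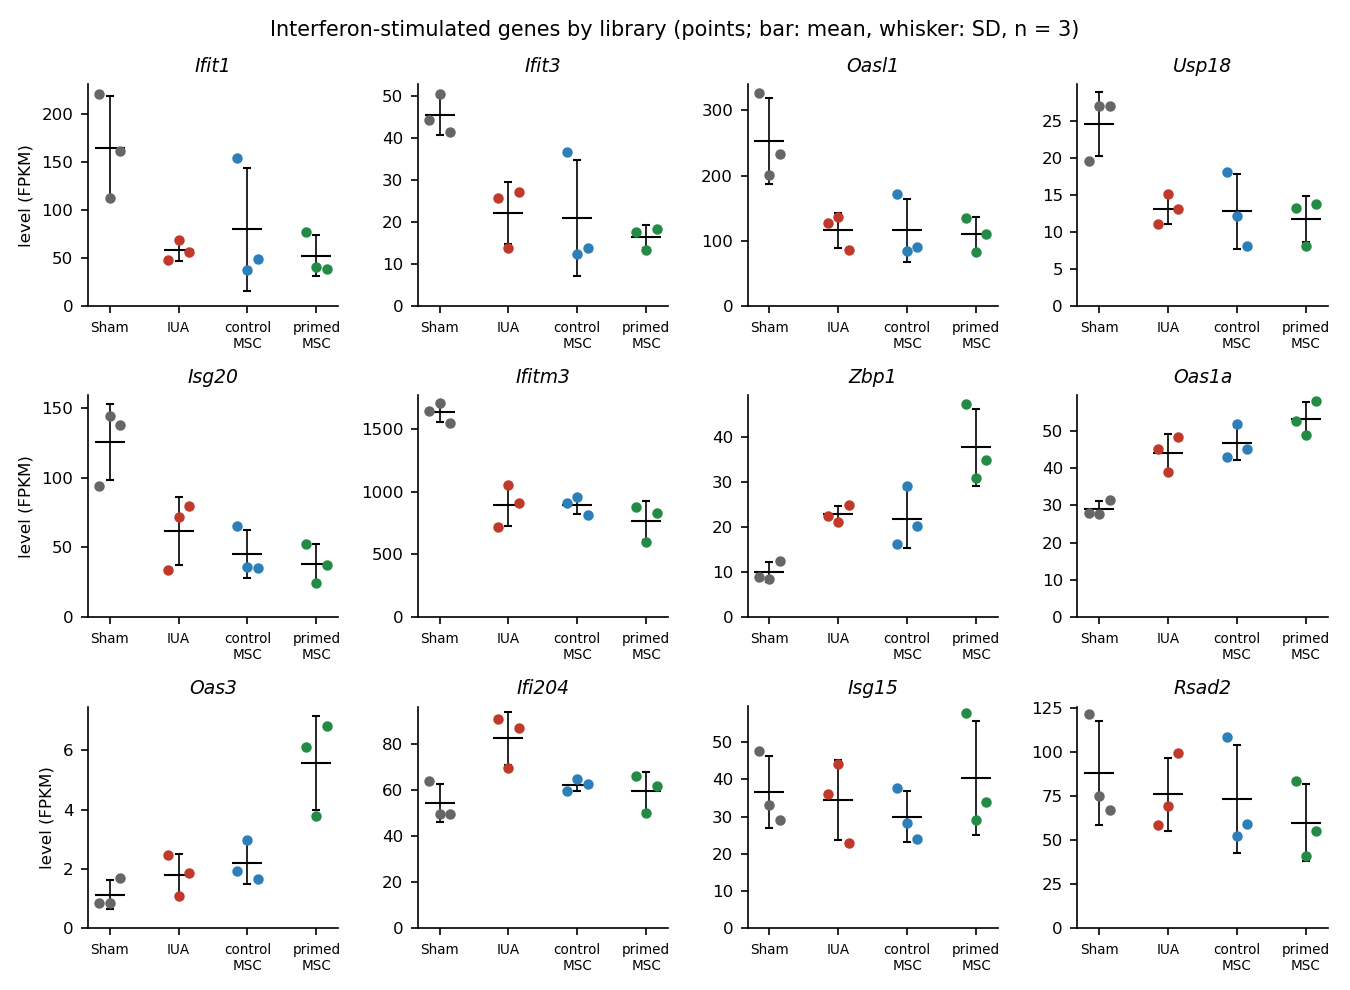
Level in FPKM (vertical axes start at 0) of 12 interferon-stimulated genes in each library (points), with the group mean (bar) and SD (whisker, n = 3). Ifit1, Ifit3, Oasl1, Usp18, Isg20 and Ifitm3 are highest in Sham; Zbp1 and Oas1a are lowest there; Oas3 is highest in primed MSC, between 3.79 and 6.82 FPKM; Isg15 and Rsad2 overlap across the groups.

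Among the sensors of RNA and DNA, 2 of 6 rose and 2 fell in IUA, beside 11.1 and 45 percent of all tested genes. Zbp1 (chromosome 2, 173206612 to 173218923), which senses Z-form nucleic acid and can trigger cell death, was at 8.97, 8.45 and 12.5 FPKM in Sham, 22.4, 21.2 and 24.99 in IUA, 16.3, 29.1 and 20.3 in control MSC, and 47.3, 30.9 and 35.0 in primed MSC. All 9 libraries outside Sham lay above all 3 Sham libraries. Zbp1 rose in IUA by 1.14 ± 0.21 (limma adjusted p = 9.67e-04), in control MSC against Sham by 1.04 ± 0.21 and in primed MSC against Sham by 1.81 ± 0.21. Ddx58, which encodes the RNA sensor RIG-I, was at 8.81, 11.6 and 7.98 FPKM in Sham, 4.47, 5.16 and 5.82 in IUA, 5.87, 5.00 and 4.31 in control MSC, and 7.02, 5.75 and 5.88 in primed MSC. Sham was above all other libraries, and Ddx58 fell in IUA by 0.76 ± 0.16 (limma adjusted p = 0.00199). Ifi204, a member of the DNA-binding p200 family, was at 63.7, 49.5 and 49.7 FPKM in Sham, 90.7, 69.3 and 87.1 in IUA, 59.7, 64.6 and 62.4 in control MSC, and 66.1, 50.05 and 61.9 in primed MSC. IUA was the group that stood apart, with each of its libraries above all others, and the rise over Sham was 0.59 ± 0.14 (limma adjusted p = 0.00379). Ifi204 shares 46.0 percent of its 31-base words with other genes, most of them with Ifi211, so its level may include reads of its relatives. Ifih1, the gene of the long-RNA sensor MDA5, fell from 63.4 ± 10.7 to 35.8 ± 3.83 FPKM (SD, n = 3; limma adjusted p = 0.0205), a call lost without Sham replicate 1 or IUA replicate 3. Dhx58 (LGP2) and Eif2ak2 (the kinase PKR) did not pass in IUA.

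The oligoadenylate synthetases make a short messenger that activates RNase L. In IUA 1 of 5 of the family rose and 2 fell, beside 11.1 and 45 percent of all tested genes. Oas1a (chromosome 5, 120896256 to 120907521) was at 28.1, 27.8 and 31.4 FPKM in Sham, 45.1, 38.8 and 48.5 in IUA, 43.1, 51.7 and 45.03 in control MSC, and 52.7, 48.8 and 57.9 in primed MSC. The Sham libraries were below the rest, and the rise in IUA was 0.58 ± 0.11 (limma adjusted p = 0.00131). Oas1a shares 68.7 percent of its words with Oas1g, so the 2 genes may not have been separated. Oasl1, a relative without synthetase activity, was at 326, 200.4 and 232 FPKM in Sham, 127, 136 and 85.9 in IUA, 172, 85.3 and 91.1 in control MSC, and 136, 83.7 and 111 in primed MSC. Sham again lay above every other library, and Oasl1 fell in IUA by 1.11 ± 0.28 (limma adjusted p = 0.00578). Oas2 fell by 0.56 ± 0.22 (limma adjusted p = 0.0432), a call lost when any of 8 of the 12 libraries was left out. Oasl2 and Oas3 did not pass in IUA against Sham.

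Of the genes around ISG15, the ubiquitin-like modifier, 1 of 3 fell in IUA, beside 45 percent of all tested genes. Isg15 itself was at 47.6, 33.2 and 29.1 FPKM in Sham, 36.1, 44.2 and 22.9 in IUA, 37.6, 28.2 and 24.1 in control MSC, and 57.8, 29.2 and 33.9 in primed MSC. The groups overlapped throughout, and its change in IUA against Sham was -0.11 ± 0.29 (limma adjusted p = 0.771). Usp18, the protease that removes ISG15 and dampens the receptor, was at 19.6, 27.1 and 27.1 FPKM in Sham, 11.1, 15.1 and 13.2 in IUA, 18.1, 12.2 and 8.13 in control MSC, and 13.3, 8.19 and 13.8 in primed MSC. Each Sham value exceeded all others, and Usp18 fell in IUA by 0.85 ± 0.26 (limma adjusted p = 0.0146). The call was lost without Sham replicate 2 or IUA replicate 1. Herc6, the mouse ligase that attaches ISG15, was at 9.22, 9.58 and 7.19 FPKM in Sham, 10.7, 9.23 and 12.3 in IUA, 7.62, 6.64 and 8.05 in control MSC, and 9.63, 6.57 and 8.41 in primed MSC, and did not pass.

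The nucleotide and RNA enzymes fell in IUA in 2 of 3 cases, beside 45 percent of all tested genes. Isg20, an RNA exonuclease, was at 94.3, 144 and 138 FPKM in Sham, 33.9, 71.8 and 79.5 in IUA, 65.1, 35.9 and 35.1 in control MSC, and 52.8, 24.5 and 37.1 in primed MSC. Sham was above all other libraries, and the fall in IUA was 1.07 ± 0.35 (limma adjusted p = 0.0212), lost without Sham replicate 2, Sham replicate 3 or IUA replicate 1. Cmpk2, a mitochondrial nucleotide kinase, was at 15.7, 9.34 and 9.74 FPKM in Sham, 5.76, 4.51 and 3.67 in IUA, 13.4, 4.35 and 4.38 in control MSC, and 7.08, 3.98 and 5.79 in primed MSC. It fell in IUA by 1.14 ± 0.35 (limma adjusted p = 0.0153), lost without Sham replicate 1 or IUA replicate 3, and the first control MSC library lay inside the Sham range. Rsad2, which encodes viperin and lies beside Cmpk2 on chromosome 12, was at 122, 75.0 and 67.1 FPKM in Sham, 58.9, 69.6 and 99.3 in IUA, 108, 52.2 and 59.0 in control MSC, and 83.7, 41.2 and 55.0 in primed MSC. Its groups overlapped and it did not pass (-0.19 ± 0.33, limma adjusted p = 0.632). The difference between the changes of Rsad2 and Cmpk2 was not tested.

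The membrane-associated products include Ifitm3, which blocks fusion of viruses with endosomes and was the most abundant of the 34 genes. Ifitm3 (chromosome 7, 141009586 to 141010770) was at 1642, 1700.2 and 1544 FPKM in Sham, 718, 1049 and 909 in IUA, 913, 956 and 817 in control MSC, and 879, 596 and 833 in primed MSC. The Sham libraries stood well above the other 9, and Ifitm3 fell in IUA by 0.88 ± 0.16 (limma adjusted p = 8.35e-04), the smallest adjusted p of the 34 in this comparison. Rtp4, a chaperone of membrane receptors, was at 102, 101 and 79.7 FPKM in Sham, 62.5, 55.6 and 66.4 in IUA, 67.2, 49.5 and 47.1 in control MSC, and 70.3, 44.7 and 57.1 in primed MSC, and fell in IUA by 0.60 ± 0.18 (limma adjusted p = 0.0121). Ifi27l2a moved the other way. It was at 103, 52.6 and 63.1 FPKM in Sham, 123, 117 and 146 in IUA, 75.6, 119 and 108 in control MSC, and 93.5, 88.8 and 110 in primed MSC. Each IUA library lay above each Sham library (0.86 ± 0.23, limma adjusted p = 0.00687). Bst2, the gene of the virus-retaining protein tetherin, did not pass.

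The dynamin-like GTPases, which trap viral particles, were close to the limit of the assay. The gene annotation lists Mx2 as a polymorphic pseudogene, so its RNA level need not mean a working protein. Mx2 was at 2.13, 2.19 and 2.11 FPKM in Sham, 1.13, 1.03 and 1.08 in IUA, 2.87, 0.82 and 1.16 in control MSC, and 0.93, 0.63 and 1.18 in primed MSC. Sham and IUA did not overlap, and the fall was 0.60 ± 0.23 (limma adjusted p = 0.0432), lost when any of 7 of the 12 libraries was left out. Mx1 was at 3.09, 0.94 and 2.29 FPKM in Sham, 2.20, 1.65 and 2.29 in IUA, 4.72, 1.62 and 1.29 in control MSC, and 2.02, 1.37 and 2.55 in primed MSC, and overlapped in every comparison.

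Of the 7 regulators and other products, 4 fell in IUA and none rose, beside 45 and 11.1 percent of all tested genes. Ifi44 was at 8.41, 10.8 and 8.75 FPKM in Sham, 6.06, 4.89 and 7.34 in IUA, 3.90, 3.46 and 3.71 in control MSC, and 5.34, 3.01 and 4.74 in primed MSC. Xaf1, which promotes cell death by binding XIAP, was at 27.5, 34.3 and 26.5 FPKM in Sham, 24.0, 19.6 and 23.3 in IUA, 17.7, 16.3 and 19.3 in control MSC, and 22.7, 17.4 and 19.2 in primed MSC. In both genes Sham lay above all the other libraries and every control MSC library below every IUA library, with falls in IUA of 0.55 ± 0.19 for Ifi44 and 0.38 ± 0.14 for Xaf1 (limma adjusted p = 0.0250 and 0.0313). Both calls were lost without Sham replicate 2 or IUA replicate 2, and that of Ifi44 also without IUA replicate 1. Ifi35 was at 40.3, 46.8 and 37.8 FPKM in Sham, 32.6, 32.1 and 38.3 in IUA, 30.0, 29.3 and 27.8 in control MSC, and 30.4, 29.0 and 31.7 in primed MSC. Here Sham and IUA overlapped, and the fall of 0.27 ± 0.11 passed narrowly (limma adjusted p = 0.0482) and was lost when any of 10 of the 12 libraries was left out. Stat2, a subunit of the ISRE-binding complex, fell from 6.71 ± 1.21 to 3.29 ± 1.34 FPKM (SD, n = 3; limma adjusted p = 0.00568). Parp14, Sp100 and Trim30a did not pass.

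The comparisons of the treated groups with Sham share the Sham libraries with the one above, so agreement between them is not separate evidence. In control MSC against Sham 16 of the 34 fell (47.1 percent), beside 42.7 percent of all tested genes, and 2 rose (5.88 percent), beside 14.1 percent, namely Zbp1 and Oas1a. Every control MSC library was below every Sham library for 15 genes, beside 49.6 percent, and above for 3, beside 17 percent. The median was -0.51 for the 34 and -0.30 for all tested genes. In primed MSC against Sham 16 fell (47.1 percent), beside 45 percent, and 4 rose (11.8 percent), beside 14.5 percent: Zbp1, Oas3, Oas1a and Dhx58. Every primed MSC library was below every Sham library for 17 genes, beside 50.6 percent, and above for 5, beside 17.5 percent. All 4 IFIT genes fell there, from -0.89 ± 0.32 for Ifit2 to -1.65 ± 0.44 for Ifit1, with Ifit3b at -1.65 ± 0.28 (limma adjusted p = 0.0312, 0.00648 and 3.73e-04). After median-ratio scaling 7 rose and 7 fell in control MSC against Sham, beside 24.9 percent of all tested genes higher and 25.4 percent lower. In primed MSC against Sham 8 rose and 9 fell, beside 26.6 percent in each direction.

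Control MSC was set against IUA to see the effect of unprimed cells. None of the 34 passed in limma (smallest adjusted p = 0.134), where 0.724 percent of all tested genes rose and 0.129 percent fell. At an unadjusted limma p under 0.05, 0 were higher and 4 lower, and the share of all tested genes at that threshold was not computed. The 4 IFIT genes changed by -0.19 to 0.20, and Isg15 by -0.17 ± 0.29. The medians were -0.09 for the 34 and 0.02 for all tested genes. The groups did not overlap for 5 genes, all lower in control MSC (beside 7.33 percent of all tested genes) and 0 higher (beside 14.8 percent).

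Priming was examined in 2 comparisons. Against IUA, 2 of the 34 rose in primed MSC (5.88 percent), beside 12.2 percent of all tested genes, and 1 fell (2.94 percent), beside 6.97 percent. The groups did not overlap for 6 genes that were higher, beside 20.1 percent of all tested genes, and 3 that were lower, beside 17.4 percent. The gene with the firmest change was Oas3 (chromosome 5, 120753098 to 120777661), the synthetase that responds to long double-stranded RNA. It was at 0.85, 0.87 and 1.70 FPKM in Sham, 2.46, 1.08 and 1.86 in IUA, 1.94, 2.98 and 1.65 in control MSC, and 6.11, 3.79 and 6.82 in primed MSC. Each primed MSC library lay above all other 9. Oas3 rose against IUA by 1.23 ± 0.25 (limma adjusted p = 0.00713) and kept its call with every library left out in turn (adjusted p up to 0.0327) and after median-ratio scaling (1.25 ± 0.26). Zbp1 rose by 0.68 ± 0.21 (limma adjusted p = 0.0428), with all primed MSC libraries above all IUA libraries, but passed with only 5 of the 12 libraries left out in turn. Ifi204 fell by 0.47 ± 0.14 (limma adjusted p = 0.0372) and passed in 6 of 12. After median-ratio scaling, where 12.8 percent of all tested genes rose and 7.73 percent fell, Oas3 alone of the 34 passed (Zbp1 adjusted p = 0.0530, Ifi204 adjusted p = 0.0514).

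Primed against control MSC is the direct test of priming. Again none of the 34 passed in limma (smallest adjusted p = 0.139, for Oas3), where 0.0776 percent of all tested genes rose and 0.0345 percent fell. Oas3 was 1.03 ± 0.25 higher. At an unadjusted limma p under 0.05, 5 of the 34 were higher and 0 lower. The share of all tested genes at that threshold was not computed, so these counts cannot be set against the rest. The groups did not overlap for 6 genes, all higher in primed MSC (beside 12.3 percent of all tested genes), and 0 were lower (beside 12.9 percent). A change in primed MSC against IUA is therefore not shown to differ from that in control MSC. The IFIT genes were 0.17 to 0.55 lower on the log2 scale in primed than in control MSC, and none passed.

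Upstream of the set, the ligand gene Ifnb1 fell while the receptor genes rose. Of 12 interferon genes looked up, 2 were expressed highly enough to be tested, and 6 (Ifna1, Ifna2, Ifna4, Ifna5, Ifnl2 and Ifnl3) were listed at 0 in every library. Ifnb1, which encodes interferon beta, was at 25.2, 9.58 and 19.6 FPKM in Sham, 2.99, 5.93 and 4.96 in IUA, 10.7, 2.45 and 2.91 in control MSC, and 3.65, 1.71 and 2.44 in primed MSC. Sham lay above IUA and primed MSC, while the first control MSC library exceeded the lowest Sham library. Ifnb1 fell in IUA by 1.71 ± 0.45 (limma adjusted p = 0.00672) with each library left out in turn and after median-ratio scaling (-1.36, adjusted p = 0.0230). With the epithelial marker level of each library as a covariate, described below, Ifnb1 did not pass (-0.53, limma adjusted p = 0.577). That covariate and the group can hardly be told apart in comparisons with Sham. Ifne, interferon epsilon, known from the epithelium of the reproductive tract, ran from 1.38 to 3.87 FPKM in Sham and 0.96 to 3.85 in the other groups, and did not pass.

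Of 8 tested receptor and kinase genes 4 rose and 2 fell in IUA, beside 11.1 percent of all tested genes higher and 45 percent lower. Ifnar1 was at 47.3, 44.8 and 41.4 FPKM in Sham, 83.5, 68.6 and 54.3 in IUA, 79.5, 86.6 and 87.7 in control MSC, and 102, 93.9 and 91.4 in primed MSC. Ifnar2 was at 58.2, 49.8 and 53.8 FPKM in Sham, 87.0, 75.0 and 84.8 in IUA, 85.0, 94.6 and 98.2 in control MSC, and 95.2, 92.2 and 95.1 in primed MSC. Both subunits were higher in every library outside Sham than in any Sham library, by 0.60 ± 0.13 and 0.60 ± 0.10 in IUA (limma adjusted p = 0.00278 and 4.20e-04). With the epithelial covariate neither subunit passed in IUA (0.36 and 0.39, limma adjusted p = 0.25 and 0.0941). Il10rb, a subunit shared by the interferon lambda receptor, rose by 0.95 ± 0.12, and the kinase gene Jak2 fell by 0.35 ± 0.13, which was 0.02 after median-ratio scaling and lost without Sham replicate 2 or 3 or IUA replicate 1 or 3.

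Of 7 transcription factor genes reported here, 1 rose and 2 fell in IUA, beside the same 11.1 and 45 percent. In primed MSC against IUA 3 rose and 0 fell, beside 12.2 percent of all tested genes higher and 6.97 percent lower. Irf7, which amplifies interferon production, was at 30.8, 30.5 and 35.4 FPKM in Sham, 54.1, 42.1 and 40.3 in IUA, 43.1, 49.5 and 40.3 in control MSC, and 72.7, 56.5 and 85.0 in primed MSC. It rose by 0.48 ± 0.16 in IUA and by 0.63 ± 0.16 in primed MSC against IUA (limma adjusted p = 0.0215 and 0.0171), and each call was lost in 3 of 12 fits that left out a library: Sham replicate 1, Sham replicate 2 or IUA replicate 1 for the former, and IUA replicate 3, primed MSC replicate 1 or primed MSC replicate 3 for the latter. Irf5, which acts below Toll-like receptors, was at 53.2, 45.9 and 41.0 FPKM in Sham, 71.8, 50.8 and 38.1 in IUA, 75.2, 85.6 and 79.8 in control MSC, and 112, 115.5 and 100.5 in primed MSC. All primed MSC libraries lay above all other libraries, and the rise against IUA was 1.06 ± 0.18 (limma adjusted p = 0.00339). Irf3, which turns on Ifnb1, and Irf2, a repressor of interferon-stimulated genes, fell in IUA by 0.88 ± 0.14 and 0.83 ± 0.15. Irf9, which completes the ISRE-binding complex, ran from 13.3 to 19.5 FPKM over all 12 libraries and did not pass in any comparison.

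**Figure D4:**
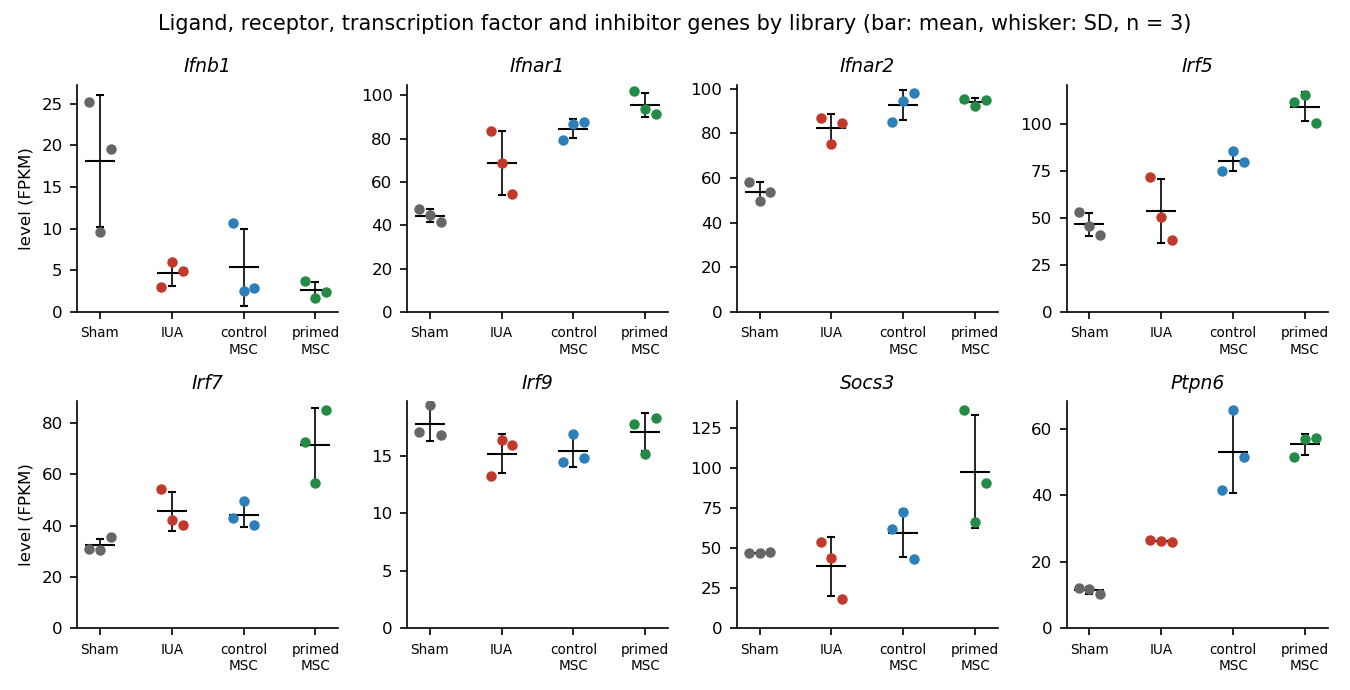
Level in FPKM (vertical axes start at 0) of Ifnb1, the receptor genes Ifnar1 and Ifnar2, the transcription factor genes Irf5, Irf7 and Irf9 and the inhibitor genes Socs3 and Ptpn6 in each library (points), with the group mean (bar) and SD (whisker, n = 3). Ifnb1 is highest in Sham, the receptor genes are lowest in Sham, and Irf5 and Irf7 are highest in primed MSC.

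The inhibitors and the sensing machinery showed no common direction in IUA, where 11.1 percent of all tested genes rose and 45 percent fell. Of 6 inhibitor genes 1 rose and 1 fell in IUA, and 2 rose in primed MSC against IUA, where 12.2 percent of all tested genes rose. Ptpn6, the phosphatase SHP-1 of blood cells, rose from 11.4 ± 0.999 FPKM in Sham to 26.3 ± 0.25 in IUA (SD, n = 3) and passed in control MSC and in primed MSC against IUA (0.95 ± 0.14 and 1.04 ± 0.14, limma adjusted p = 0.0153 and 0.00116). The call in control MSC was lost without control MSC replicate 2 or 3. Socs3, a feedback inhibitor of cytokine receptors, rose in primed MSC against IUA by 1.39 ± 0.35 (limma adjusted p = 0.0175), a call lost without primed MSC replicate 1, while Ptpn11 fell in IUA and Pias4 did not pass in either comparison. Of 14 tested genes that sense nucleic acid or relay the signal, 5 rose and 5 fell in IUA, beside those 11.1 and 45 percent. Tlr7 rose by 1.02 ± 0.12 and the kinase genes Ikbke and Tbk1 by 1.03 ± 0.23 and 0.55 ± 0.09. Unc93b1, the chaperone of endosomal Toll-like receptors, rose in IUA by 0.47 ± 0.18 and in primed MSC against IUA by 1.02 ± 0.18, the former lost without Sham replicate 2 or 3 or IUA replicate 1 or 2. A wider list of other interferon-stimulated genes was also split: of 52 tested, 16 rose and 15 fell in IUA, beside 11.1 and 45 percent of all tested genes. In primed MSC against IUA 8 rose and 6 fell, beside 12.2 and 6.97 percent. Samhd1, which destroys nucleotides, rose in IUA by 1.77 ± 0.16 and in primed MSC against IUA by 0.57 ± 0.16, the latter lost without IUA replicate 1 or 3 or primed MSC replicate 1 or 2. Slfn2 and Sp110 rose in IUA by 1.30 ± 0.17 and 0.62 ± 0.12, and Ifitm6 rose there by 1.60 ± 0.21 and fell in primed MSC against IUA by 1.13 ± 0.21.

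Within groups, many of the 34 genes were highest or lowest in the same library. In the control MSC group replicate 1 was the highest library for 21 of the 34 genes, beside 45.6 percent of all tested genes. In the primed MSC group replicate 2 was the lowest for 30 of the 34, beside 36.9 percent. After median-ratio scaling these counts were 18, beside 34.5 percent, and 29, beside 33.6 percent. Other libraries stood out as well. IUA replicate 2 was the lowest of its group for 20 of the 34, beside 23.6 percent (20 beside 31 percent after scaling). Primed MSC replicate 1 was the highest of its group for 20, beside 22.6 percent (26 beside 34.7 percent after scaling). The mean log2 level of the IFIT genes was 5.14, 3.74 and 3.85 in control MSC replicates 1 to 3 and 4.13, 3.62 and 4.01 in primed MSC. Ifnb1 was also highest in the first control MSC library and lowest in the second primed MSC library. The mean log2 level of the epithelial markers had its extremes in the same 2 libraries: 5.61, 4.51 and 4.58 in control MSC and 5.17, 4.45 and 5.17 in primed MSC. In IUA and Sham the 2 levels did not run together. The IFIT genes were at 4.41, 4.01 and 4.48 in IUA and the markers at 4.64, 5.71 and 5.26. In Sham the IFIT genes were at 5.48, 5.20 and 5.28 and the markers at 6.25, 6.89 and 6.96, so the library highest for the IFIT genes was lowest for the markers. Without control MSC replicate 1, 20 of the 34 fell in control MSC against Sham, beside 40.5 percent of all tested genes. None passed against IUA, where 0.302 percent of all tested genes rose and 0.0778 percent fell. Without primed MSC replicate 2, 13 fell in primed MSC against Sham, beside 39.6 percent of all tested genes. Against IUA, Oas3 and Zbp1 then rose while Ifi204 did not pass, beside 7.78 percent of all tested genes higher and 3.05 percent lower.

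**Figure D5:**
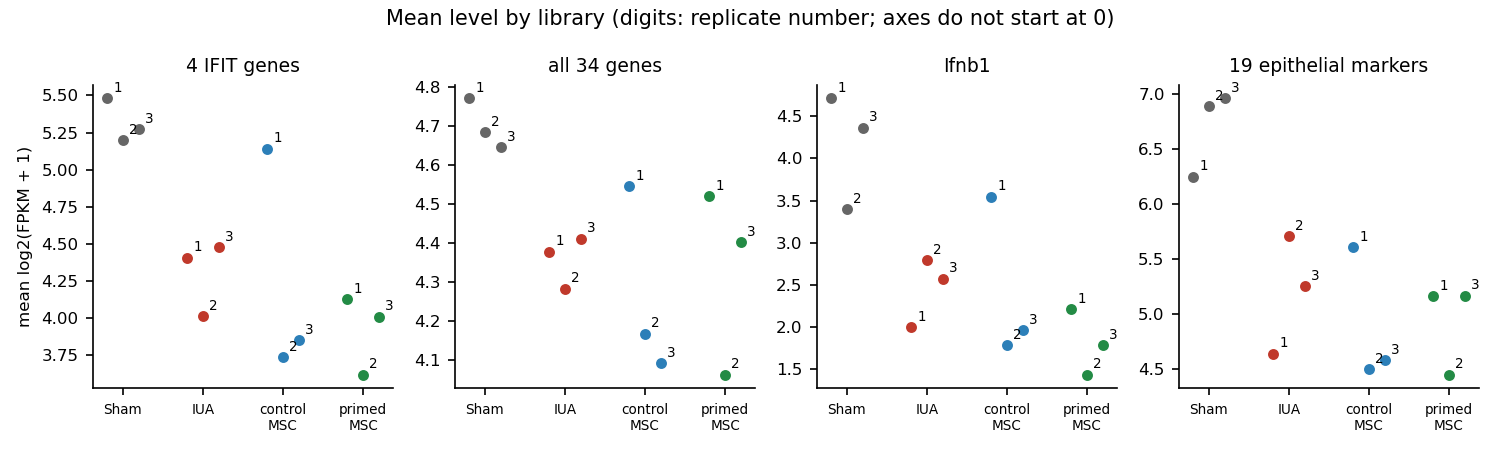
Mean log2(FPKM + 1) in each library (points, with the replicate number; axes do not start at 0) of the 4 IFIT genes, all 34 genes, Ifnb1 and 19 epithelial markers. Control MSC replicate 1 is the highest and primed MSC replicate 2 the lowest of its group in all 4 panels; among the IUA libraries, replicate 2 is the lowest for the IFIT genes and the highest for the epithelial markers.

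Not all of the 34 took part in this. A gene's deviation from its group mean was correlated with the average deviation of the other members over the 12 libraries. All genes of a library share its depth and cell make-up, and the part of these in the correlations was not tested. The correlation was 0.93 for Rtp4, 0.92 for Ifit2, 0.82 for Cmpk2 and 0.80 for Rsad2. It was 0.06 for Oas1a, -0.08 for Zbp1, -0.15 for Ifi27l2a, -0.16 for Eif2ak2 and -0.42 for Sp100. Low values also occurred in genes that fell in IUA, such as Stat2 (0.20) and Oas2 (0.25). Dhx58 (0.15) and Bst2 (0.22), which did not pass there, were low too. Of the 4 genes that rose in IUA, 3 (Oas1a, Zbp1 and Ifi27l2a) were thus among those that did not track the rest within groups, and Ifi204 was at 0.47. Adding the epithelial marker level of each library as a covariate left 0 of the 34 passing in IUA against Sham and in control MSC against Sham. In that fit few genes of any kind passed: 2.97 percent of all tested genes rose and 5.71 percent fell in IUA against Sham. In control MSC against Sham the shares were 2.71 and 3.82 percent. In primed MSC against Sham, Zbp1 and Oas1a still rose, beside 3.98 percent of all tested genes higher and 7.86 percent lower. In primed MSC against IUA, Oas3 rose and Ifi204 fell, beside 13.1 and 8.17 percent. The marker level was 6.25 to 6.96 in Sham and 4.45 to 5.71 elsewhere, so in comparisons with Sham the covariate and the group can hardly be told apart.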

How the data were processed

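The labels describe poly(A)-selected libraries. The FPKM values were computed and deposited by the authors, rounded to 2 decimals. Tools named in the submitters' processing notes are HISAT2, fastp, RSEM, StringTie and DESeq2, with the build mm10 and no versions or roles. Human reads from the injected cells were not separable here. From the FPKM, log2(FPKM + 1) was fitted with limma 3.58.1 in R 4.3.3: genes at 1 FPKM or more in at least 3 libraries (11604), 1 mean per group, all 12 libraries together, empirical Bayes with a trend, two-sided tests, Benjamini-Hochberg over all genes. The fit was tested on simulated data. With 3 libraries a side, the smallest two-sided p of an exact permutation test is 0.1, so none is used.

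The members and gene lists were chosen with earlier results of these data known. Values in every library are given for the 3 members of each role with the smallest F test p and for members that passed among the IUA groups; of the pathway lists, for up to 4 genes by the same p plus 7 core genes, of which 1 is not reported here. Positions are from GENCODE M21 (GRCm38), promoters from RefSeq. Depth was estimated from genes with transcripts under 900 nt. Of their low values 72.7 to 84.0 percent lay within 0.15 of a whole step, against 33.0 to 40.7 percent for values without a step. The estimate is too loose for a count test. Strand was not marked, so 10 members overlapping a gene on the other strand (such as Usp18, Oasl1 and Oas2) cannot be separated from it. Alternatives numbered 9, beside leaving out each of the 12 libraries: a pseudocount of 0.1, no filter, a filter at FPKM 5, median-ratio scaling, the compared groups alone, a replicate block, a correction for transcript GC content, an epithelial covariate, and, chosen after seeing the data, GC correction with scaling.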

Additional observations from a re-analysis of the deposited data

How the results depend on the processing

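Across the 6 comparisons the 34 genes gave 62 calls. Of these, 61 still passed with a pseudocount of 0.1, 55 with no filter, 57 of 57 with a filter at FPKM 5, 56 with the compared groups alone, 55 with the GC correction, 30 with median-ratio scaling, 28 with GC correction and scaling together, 4 with the epithelial covariate, and 50 to 60 with 1 library left out. The replicate block gave 4 higher and 16 lower in IUA against Sham, 2 and 1 in primed MSC against IUA, 2 and 19 in control MSC against Sham and 4 and 17 in primed MSC against Sham. The shares of all tested genes, in that order, were 10.8 and 43.5, 10.9 and 5.76, 13.6 and 42, and 14.2 and 44.1 percent. Deviations of same-numbered libraries from their group means had correlations from -0.293 to 0.288, with 3 of 18 over 0.1. With 3 libraries a group these values cannot settle whether same-numbered libraries share animals or days, which the labels do not say. Median-ratio scaling gave 8 higher and 3 lower in IUA against Sham, 1 and 0 in primed MSC against IUA, 7 and 7 in control MSC against Sham, and 8 and 9 in primed MSC against Sham. Shares of all tested genes were 21.8 and 23.4, 12.8 and 7.73, 24.9 and 25.4, and 26.6 and 26.6 percent. GC correction with scaling, chosen after seeing the data, gave 9 and 2, 2 and 0, 7 and 7, and 8 and 8. There the shares of all tested genes were 23 and 21.4, 10.8 and 8, 26.5 and 24.8, and 28 and 26.4 percent. The epithelial covariate gave 0 and 0, 1 and 1, 0 and 0, and 2 and 0. With it the shares of all tested genes were 2.97 and 5.71, 13.1 and 8.17, 2.71 and 3.82, and 3.98 and 7.86 percent. In primed MSC against IUA, no filter gave 1 and 0, beside 6.49 and 3.12 percent of all tested genes. The filter at FPKM 5 gave 1 higher there, beside 14.6 percent. The compared groups alone and the GC correction gave 0 lower there, beside 4.45 and 7.51 percent. Leaving out a library gave 9 (without Sham replicate 2) to 17 lower in IUA against Sham, and 10 without IUA replicate 2. In those fits 37.4 to 44.1 percent of all tested genes fell. Leaving out a library gave 1 to 4 higher (4 without IUA replicate 1) and 0 to 2 lower in primed MSC against IUA. The shares of all tested genes there were 7.43 to 13.1 and 2.54 to 9.12 percent. In control MSC against Sham 2 to 4 were higher (4 without Sham replicate 1), beside 11.7 to 15.3 percent. Signs turned, with no call on the other side, for Ifi35 (0.10) and Jak2 (0.016) in IUA against Sham under scaling, and for Ifi35 (0.27) and, in primed MSC against Sham, Ptpn11 (0.050) under GC correction with scaling. With the covariate they turned for Mx2 (0.024), Usp18 (0.12) and Isg20 (0.33) in IUA against Sham, Ifih1 (0.044), Ifit1 (0.080), Usp18 (0.23) and Isg20 (0.21) in control MSC against Sham, and Mx2 (0.0066) and Usp18 (0.13) in primed MSC against Sham. The cause of these shifts was not tested. Calls of genes near 1 FPKM, such as Mx2, are limited by depth.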
